A study of Sorghum bicolor with 4 samples.

Results

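The distal arms are the stretches of the 10 sorghum chromosomes that lie from 1 Mb to just under 10 Mb from the nearer chromosome end, 1 at the low coordinates (start arm) and 1 at the high coordinates (end arm) of each chromosome, 20 in all. A peak was counted as a member when its summit lay in this band, so position alone chose the members and no measured value entered the choice. The band held 5435 of the 35541 chromosome peaks and of the 40087 peaks in all, with 3179 in the start arms and 2256 in the end arms. The peaks come from chromatin immunoprecipitation followed by sequencing (ChIP-seq) on Sorghum bicolor mesophyll protoplasts, leaf cells freed of their walls, which transiently expressed SbGhd7 overnight at 24 °C. The 4 samples fall into input chromatin (2 samples, no antibody) and chromatin precipitated with a Myc antibody, Sigma C3956 (IP, 2 samples). Every sample carries transient SbGhd7, and an IP from cells without it was not analysed here, so an enrichment of IP over input is not set against a cell that lacks the protein. The promoter that drives the transgene is not given in the sources used here.

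Ghd7 proteins carry a CCT domain and act as repressors of flowering in long days in rice and sorghum. CCT proteins are known to reach DNA together with NF-Y subunits, and members of the florigen pathway are among their known targets in grasses. In sorghum, genes are concentrated toward the chromosome ends, and a large heterochromatic region rich in retrotransposons surrounds each centromere. The distal arms are therefore largely euchromatic by general knowledge, although no gene or sequence was matched to any peak here.

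The authors deposited 1 list of peaks with no values per sample. Each peak has a width, a fold of IP over local background at its summit, a −log10 p and a −log10 q. From the fold and the p, the whole number of IP fragments over the summit (pileup) and the background there were recovered for 40087 of 40087 peaks. The total read number of each library is unknown, and no spread between samples can be given, so the 10 chromosomes serve as the units of each test below. Chromosomes are not biological replicates. Each test and SD over them describes how alike the chromosomes are within 1 list, not how well samples reproduce. A median member rested on 11 fragments (exact 95% Poisson interval 5.49 to 19.7) over a background of 2.30, and 97.3% of members had a pileup of 20 or less. At these values the fold is 3.64 with an interval of 1.97 to 6.27, which spans both quartiles of the members' fold, 3.26 and 4.24. Intervals cover counting error only, and those on a density or on a share of peaks also take peaks as independent, although peaks cluster.

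Peaks were sparse in the distal arms. The band makes up 26.3% of the chromosome length up to the last peak and held 15.3% of the chromosome peaks. Peak density was 30.2 ± 5.77 per Mb in the distal arms (SD, n = 10 chromosomes) and 60.9 ± 5.89 in the interior, which is everything 10 Mb or more from either end. It was lower in the distal arms on 10 of 10 chromosomes, with a ratio of the means of 0.496 (exact two-sided sign-flip test over chromosomes, adjusted p = 0.00651). With 1 peak kept per cluster of summits within 10 kb the ratio was 0.706, and the difference to the interior was -5.02 clusters per Mb (adjusted p = 0.00586, exact sign-flip test). The outermost 1 Mb held 35.2 ± 11.6 peaks per Mb, more than the distal arms on 7 of 10 chromosomes, and this difference did not pass the test (4.96 ± 11.3, exact sign-flip test, adjusted p = 0.221).

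**Figure D1:**
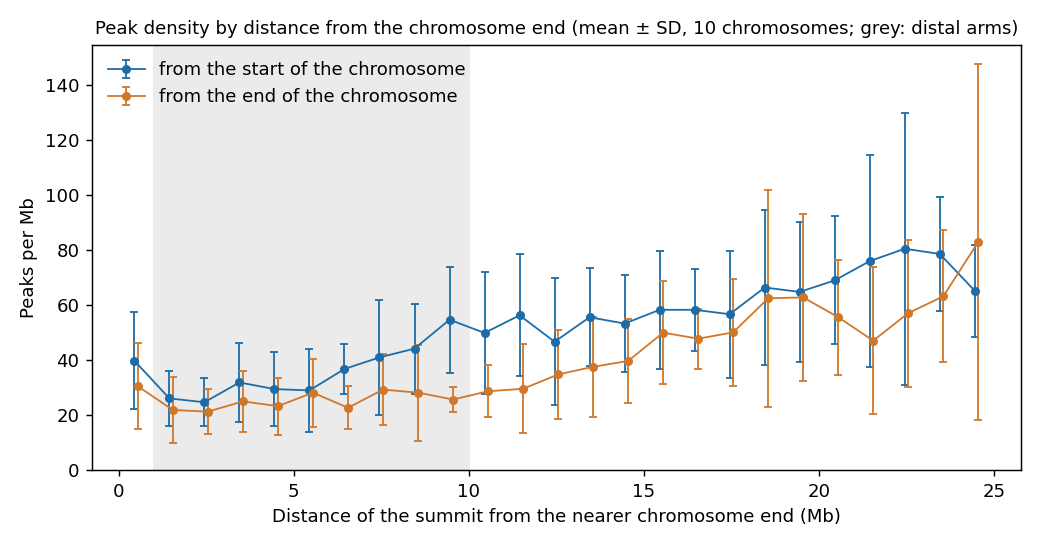
Peak density in peaks per Mb (y axis) against the distance of the summit from the nearer chromosome end in Mb (x axis), as mean and SD over 10 chromosomes, for the start side (blue) and the end side (orange). Within the grey distal band the start side rose from 26.1 to 54.7 peaks per Mb, while the end side lay between 21.3 and 29.3.

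Within the distal arms, density increased inward. It was 25.2 ± 4.91 peaks per Mb at 1 to 4 Mb from the ends and 37.2 ± 11.7 at 7 to 10 Mb, lower in the outer part on 9 of 10 chromosomes (exact sign-flip test, adjusted p = 0.0130). Chromosome 2 was the exception, with 30.2 in the outer and 23.8 in the inner part. The largest contrast was seen on chromosome 8, at 23.0 against 60.5. When only members at or above a −log10 q of 5 were kept, the difference did not pass the exact test (adjusted p = 0.117), although the ratio of outer to inner density, 0.663, was close to the 0.676 over all members. Arm by arm, the inner part was denser in 16 of 20 arms, 9 of 10 start arms and 7 of 10 end arms, with ratios of inner to outer density from 0.652 in the end arm of chromosome 2 to 2.64 in the start arm of chromosome 8.

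On the means, this gradient was steeper on the start side. The start arms held 27.6 ± 6.52 peaks per Mb at 1 to 4 Mb, 31.8 ± 10.5 at 4 to 7 Mb and 46.6 ± 15.3 at 7 to 10 Mb. In the end arms the same steps gave 22.7 ± 6.33, 24.7 ± 7.41 and 27.7 ± 9.59. These SDs are spreads between chromosomes and do not measure the step within an arm. Farther in, at 10 to 20 Mb, the start side reached 56.6 ± 11.7 and the end side 44.4 ± 15.3. Whether the slopes of the sides differ was not tested. The densest 5 Mb of the chromosome had its middle nearer to the start on 8 chromosomes and nearer to the end on 2, chromosomes 5 and 8. On chromosome 4 it was centred 16.5 Mb from the start and 52.1 Mb from the end, and on chromosome 5 it was centred 45.5 Mb from the start and 26.4 Mb from the end.

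The start arm was the denser of the pair on 9 of 10 chromosomes. The mean over 10 start arms was 35.3 ± 8.38 peaks per Mb and that over 10 end arms 25.1 ± 5.87, a difference of 10.3 ± 8.73 (exact sign-flip test, adjusted p = 0.00977). The counting intervals of the pair did not overlap on 5 chromosomes, 1, 6, 7, 8 and 9. These intervals take peaks as independent and are too narrow. Counts in 100 kb windows had a variance of 2.34 to 7.91 times their mean. Once each cluster of summits within 10 kb was counted a single time, the density difference between the sides was 0.856 clusters per Mb. It no longer passed the exact test (adjusted p = 0.259). Since a fixed 10 kb merges more peaks in a denser arm, part of this loss is built in.

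**Figure D2:**
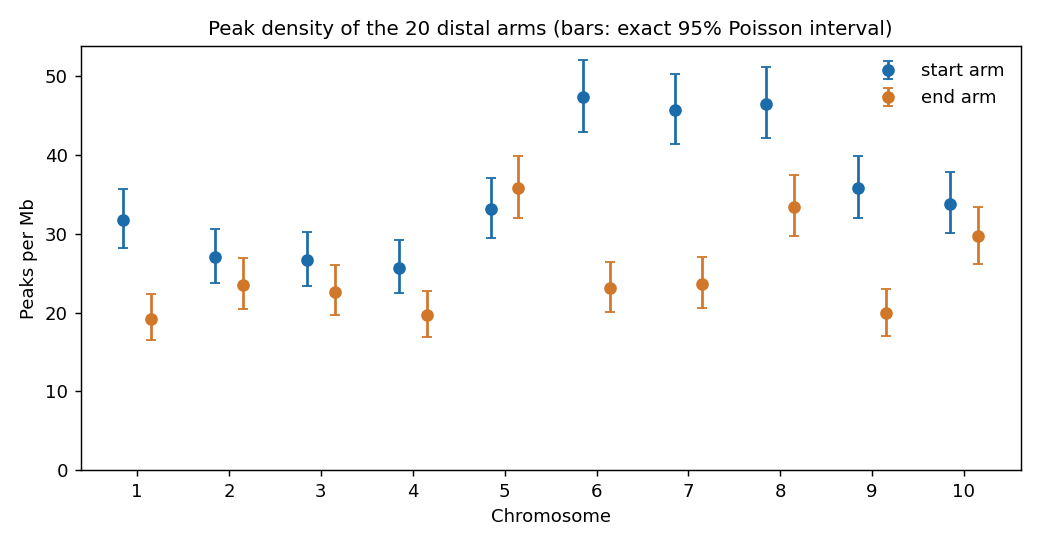
Peak density in peaks per Mb (y axis) of the start arm (blue) and the end arm (orange) of each chromosome (x axis), with exact 95% Poisson intervals as bars. The start arms of chromosomes 6, 7 and 8 lie at 45.7 to 47.3, and chromosome 5 has the only start arm below its end arm.

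The 3 densest arms were the start arms of chromosomes 6, 8 and 7, with 47.3 (42.9 to 52.0), 46.4 (42.1 to 51.1) and 45.7 (41.4 to 50.3) peaks per Mb. Their intervals overlap each other and lie above those of the other 17 arms, the next of which, the start arm of chromosome 9 and the end arm of chromosome 5, both held 35.8 (32.0 to 39.9). As above, such intervals are too narrow for clustered peaks, and the order of the arms was not tested. The sparsest arms were the end arms of chromosomes 1, 4 and 9, with 19.2 (16.5 to 22.3), 19.7 (16.9 to 22.8) and 19.9 (17.1 to 23.0). These 3 could not be told apart by counting error.

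Chromosome 1 held 286 members in its start arm, 31.8 per Mb (28.2 to 35.7), and 173 in its end arm, the fewest of any arm. Neighbouring summits of the start arm were a median of 2.40 kb apart and 27.4% of the gaps were under 1 kb, the highest share of the 20 arms. In the end arm the median gap was 10.5 kb and 16.9% of gaps were under 1 kb. Spacing was not compared at equal density. Median width was 227 bp in the start arm and 208 bp in the end arm.

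Chromosome 2 had 243 members in the start arm, 27.0 per Mb (23.7 to 30.6), and 212 in the end arm, 23.6 (20.5 to 26.9). These intervals overlap, and the median widths of 219 and 218.5 bp were nearly equal. Spacing ran against the general order here, with a median gap of 5.69 kb in the start arm and 4.58 kb in the end arm. In the start arm 31 peaks, 12.8% (8.84 to 17.6), reached 5-fold, against 8.47% of all chromosome peaks, which is just under the lower limit. This was the highest share of the 20 arms, and it was not tested.

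The start arm of chromosome 3 held 240 members, 26.7 per Mb (23.4 to 30.3), and its end arm 204, 22.7 (19.7 to 26.0). The median gap was 3.64 kb against 15.8 kb, the longest of the 20 arms. The end arm nevertheless had more clusters, 111 against 93, because 78 of its clusters were single peaks. Chromosome 4 was sparse on both sides, with 231 members at 25.7 per Mb (22.5 to 29.2) and 177 members at 19.7. Its start arm had the widest peaks by median, 236 bp, and the end arm had a median of 205 bp. Only 7.95% of gaps in that end arm were under 1 kb, the lowest share of all.

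Chromosome 5 was the exception among the pairs, with 298 members in the start arm, 33.1 per Mb (29.5 to 37.1), and 322 in the end arm, 35.8 (32.0 to 39.9). The intervals overlap. The end arm had 132 clusters against 108, and 11 of its 90 windows of 100 kb held no summit, the fewest of any arm. Peaks were still wider in the start arm, with a median of 226 against 209 bp. The largest gap inside this end arm, 285 kb, was the shortest such maximum of the 20 arms.

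Chromosome 6 showed the largest ratio, with 426 members in the start arm and 208 in the end arm, a ratio of 2.05. The end arm held 23.1 peaks per Mb (20.1 to 26.5). SbGhd7 itself is encoded on this chromosome by general knowledge, and no peak of the distal arms was assigned to it. Most of the difference came from the part at 4 to 7 Mb, where the start arm had 58.0 peaks per Mb and the end arm 14.7.

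Chromosome 7 followed with 411 and 213 members, a ratio of 1.93, and 23.7 peaks per Mb (20.6 to 27.1) in the end arm. Its start arm had the most peaks per cluster, 3.70, against 2.01 in the end arm, with 111 and 106 clusters. The number of clusters was thus close on the sides while the number of peaks was not. A denser arm merges more neighbours at a fixed 10 kb, so this contrast is partly built in. Of the 6 densest 100 kb windows in the distal arms, 4 lay in this start arm.

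Chromosome 8 had the most members, 719, with 418 in the start arm and 301 in the end arm, 33.4 per Mb (29.8 to 37.4). Median widths were 222 and 223 bp, the only pair with the wider peaks at the end. Both arms rose steeply inward, to 73.0 and 48.0 peaks per Mb at 7 to 10 Mb. In the start arm 45 peaks, or 10.8% (7.96 to 14.1), reached a fold of 5, an interval that includes the 8.47% of all chromosome peaks.

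Chromosome 9 had 322 members in its start arm and 179 in its end arm, the latter with the narrowest median width, 189 bp, and the lowest share of peaks at or above 5-fold, 6 peaks or 3.35% (1.24 to 7.15) against 8.47% of all chromosome peaks. In the start arm the same share was 12.4% (9.02 to 16.5), and 25 of those 40 peaks belonged to 1 block described below. Without the block the start arm held 29.6 peaks per Mb. Chromosome 10 closed the set with 304 members, 33.8 per Mb (30.1 to 37.8), and 267 members, 29.7 (26.2 to 33.4). Its intervals overlap, and its end arm had the shorter median gap, 3.95 against 4.78 kb.

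Spacing was uneven in every arm. The median gap between neighbouring summits was 4.02 kb over the members and the mean 32.7 kb, since many peaks lay close together and 580 of 5415 gaps were over 100 kb. Counts in windows of 100 kb had a variance of 2.34 to 7.91 times their mean in the 20 arms, and 11 to 29 of the 90 windows of an arm held no summit. A gap under 1 kb was found for 18.8 ± 2.80% of neighbours in the distal arms and 24.5 ± 1.69% in the interior (n = 10 chromosomes), lower in the distal arms on 10 of 10 chromosomes (exact sign-flip test, adjusted p = 0.00651). When only members at or above a −log10 q of 5 were kept, this difference did not pass the exact test (adjusted p = 0.117), although the ratio of the shares was lower, 0.531 against 0.765 over all members. A lower density by itself gives fewer close neighbours, and the share was not adjusted for density.

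Chained at 10 kb, the members formed 2174 clusters, of which 1207 were single peaks and 629 held 3 or more. The clusters of 3 or more contained 65.4% of all members and spanned a median of 8.87 kb from first to last summit. Start and end arms had 1126 and 1048 clusters, and the mean number of peaks per cluster was 2.82 and 2.15. Per arm, the number of clusters was 112.6 ± 14.7 on the start side and 104.8 ± 13.7 on the end side (n = 10 arms each), while peaks per cluster were 2.81 ± 0.470 and 2.14 ± 0.318. The start arm had more peaks per cluster on 8 of 10 chromosomes, with chromosomes 2 and 10 as exceptions. Clusters of 10 or more peaks numbered 45 in the start arms and 22 in the end arms. These cluster sizes are descriptive and were not tested or adjusted for density. Chaining at a fixed 10 kb makes clusters larger where peaks are denser.

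**Figure D3:**
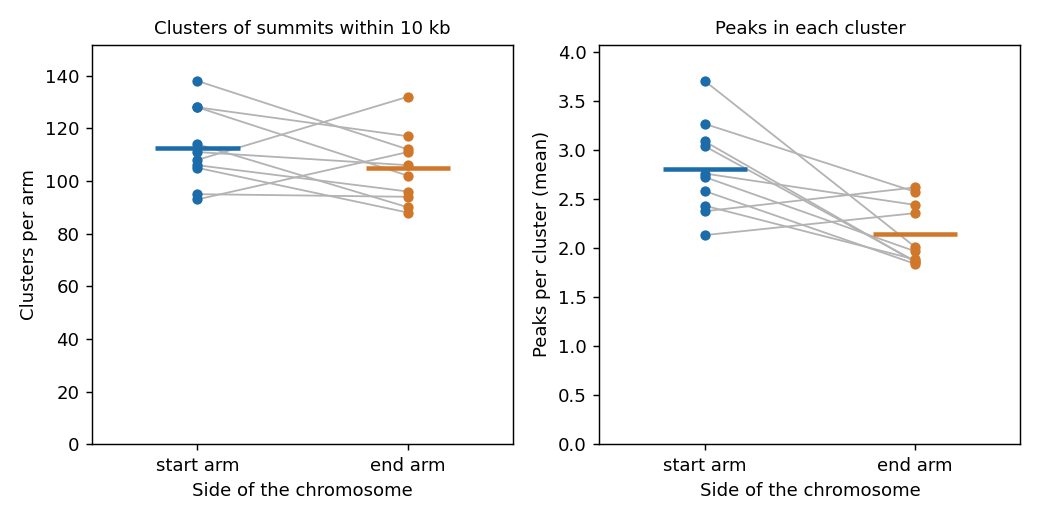
Number of clusters of summits within 10 kb per arm (left y axis) and mean number of peaks per cluster (right y axis) for the start and the end arm (x axis), with a line joining the arms of each chromosome and a bar at the mean. Cluster numbers overlap widely, from 93 to 138 against 88 to 132, while peaks per cluster lie at 2.13 to 3.70 in start arms and 1.84 to 2.62 in end arms. Neither measure was adjusted for density.

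The densest 100 kb window of the distal arms, 7.6 to 7.7 Mb of chromosome 9, held 41 summits and is part of the block described below. The next, 55.4 to 55.5 Mb of chromosome 8, held 35 summits with a median width of 353 bp and a median background of 2.32, close to that of all members. Windows on the start arm of chromosome 7 came next, with 26 summits at 8.3 to 8.4 Mb, 24 at 3.8 to 3.9 Mb, and 22 each at 7.3 to 7.4 Mb and 9.4 to 9.5 Mb. Their median widths differed, from 183 bp in the window at 7.3 Mb to 302 bp in that at 3.8 Mb.

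The longest gaps without a summit lay on both sides. The longest was 565 kb in the end arm of chromosome 9, from 54399484 to 54964688. The next 2 were in the start arm of chromosome 4, 544 kb from 3526362 to 4070458 and 435 kb from 3001997 to 3436536. At the inner end of the 544 kb gap lies a peak with 1 of the 10 largest folds of the distal arms. Then came 429.7 kb on chromosome 7 from 1862039 to 2291717 and 421 kb on chromosome 9 from 4280281 to 4701368, both in start arms. The longest gap of each arm was between 285 and 565 kb, with means of 388 ± 72.2 kb in start arms and 377 ± 74.6 kb in end arms, which overlap.

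Peaks of the distal arms were slightly narrower and weaker than those of the interior. Median width was 216.4 ± 7.31 bp against 223.2 ± 3.46 bp (n = 10 chromosomes), lower on 8 of 10 (exact sign-flip test, adjusted p = 0.0220). Median fold was 3.68 ± 0.0537 against 3.74 ± 0.0253, also lower on 8 of 10 (exact sign-flip test, adjusted p = 0.0140). Both calls were lost with the band widened to 12 Mb (adjusted p = 0.122 for each, exact test). At or above a −log10 q of 5 both differences turned direction, to 13.3 bp wider (adjusted p = 0.620, exact test) and a fold 0.0718 higher (adjusted p = 0.117). The q of a peak is set by the same pileup and background as its fold, so a comparison of folds above a q threshold is no independent check. The background at the summit was 2.30 ± 0.0390 and 2.33 ± 0.0451 fragments, which did not pass the exact test (adjusted p = 0.367). By side, the pooled peaks of the start arms had the medians of the interior, 224 bp and 3.75-fold. Those of the end arms had 207 bp and 3.62-fold, and neither side was tested against the interior.

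In median width and median fold, the sides lay farther apart than the distal arms and the interior did. These gaps were not tested against each other, and the distal medians pool both sides. Median width was 223.4 ± 8.43 bp in start arms and 207.6 ± 9.95 bp in end arms, larger at the start on 9 of 10 chromosomes (difference 15.8 ± 13.2 bp, exact sign-flip test, adjusted p = 0.0117). The median fold was 3.74 ± 0.0552 in start arms and 3.62 ± 0.0617 in end arms, higher at the start on 10 of 10 chromosomes (difference 0.125 ± 0.0517, exact sign-flip test, adjusted p = 0.00651). At or above a −log10 q of 5, with the same limit, neither difference passed the exact test, the fold difference being 0.00911 (adjusted p = 0.914) and the width difference 51.4 bp (adjusted p = 0.117). The background was lower in the start arm on 8 of 10 chromosomes and equal on 1, with means of 2.28 ± 0.0453 and 2.33 ± 0.0494, and its part in the fold difference was not tested.

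Below 20 fragments, start arms still had the wider median at like pileup. Among members with a background under 5, peaks with 10 or 11 fragments were a median of 202 bp wide in start arms (992 peaks) and 188 bp in end arms (755 peaks), against 199 bp in the interior. With 15 to 19 fragments the medians were 326.5 bp (446 peaks), 291 bp (273 peaks) and 306 bp. Up to 9 fragments they were 177, 170 and 176 bp in that order. At 12 to 14 fragments they were 240.5, 231 and 239 bp. At 20 to 29 fragments the order of the arms turned, with 329.5 bp (44 peaks) and 341 bp (41 peaks). Below 20 fragments, median background was also lower and median fold higher in start arms. With 10 or 11 fragments they were 2.25 against 2.28 and 3.55 against 3.48. Peaks of like pileup were thus not alike in enrichment. These medians pool peaks over chromosomes and are descriptive. Together, wider and more numerous peaks covered 1.03 ± 0.286% of the start arms and 0.641 ± 0.192% of the end arms.

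**Figure D4:**
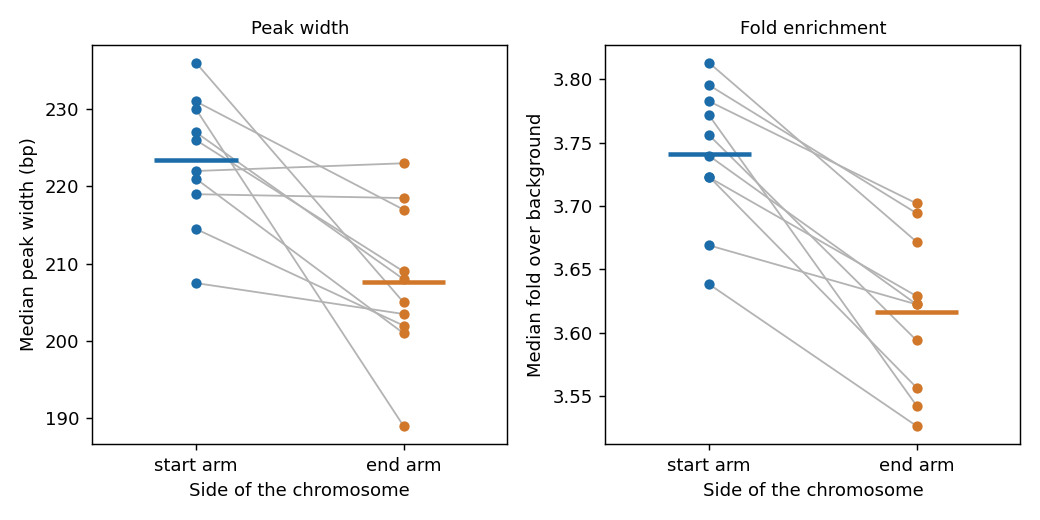
Median peak width in bp (left y axis) and median fold over background (right y axis) of the start and the end arm (x axis), with a line joining the arms of each chromosome and a bar at the mean; the y axes do not start at 0. The fold line falls from start to end on 10 of 10 chromosomes and the width line on 9, from means of 223.4 to 207.6 bp.

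Over the whole width range, the narrowest members measured 135 bp, a width shared by 46 members and also the smallest in the interior. The quartiles were 166 and 311.5 bp, and 412 members reached 500 bp, 7.58% against 8.63% in the interior. A width of 1 kb or more was found for 62 members. Outside the block on chromosome 9 the widest member was 1959 bp, on chromosome 2 from 3500598 to 3502556 with a fold of 5.16, followed by 1854 bp on chromosome 5 from 65898839 to 65900692 with a fold of 5.15. Both rested on few fragments, a pileup of 15 (8.40 to 24.7) and of 16 (9.15 to 26.0).

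Strong peaks were few. The threshold of 5-fold was reached by 452 members, 8.32% (7.60 to 9.08), against 8.47% of all chromosome peaks, so the share was near the background. A −log10 q at or above 5 was found for 862 members, 15.9% (14.9 to 16.9), against 18.3% of all chromosome peaks. By arm, the share at or above 5-fold ran from 3.35 to 12.8% and was higher at the start on 6 of 10 chromosomes. At or above 8-fold there were 20 members, 0.368% (0.225 to 0.568), against 0.129% of all chromosome peaks and 0.0816% (0.0523 to 0.121) of the interior peaks. In the outermost 1 Mb the share was 0.284% (0.0345 to 1.02) on 2 peaks, an interval that includes the share of the distal arms. The intervals on these shares take peaks as independent, although 2 of the 20 members had summits 0.733 kb apart. These 20 were spread over 10 arms, 11 in start arms and 9 in end arms, and no difference between regions was tested for them. For 10 of them the lower counting limit of the fold was 8 or more.

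Of the 10 largest folds of the distal arms, 6 had no other summit within 10 kb, as did 1207 of the 5435 members (22.2%), and no test was made of this. The leading peak, 7496019 to 7496218 on chromosome 3, rested on 327 fragments over a background of 5.70, which is 49.0-fold (43.8 to 54.6), and its nearest summit lay 77.4 kb away. Next was 5008290 to 5008704 in the start arm of chromosome 2, at 23.8-fold (19.2 to 29.04) and with no summit nearer than 79.1 kb. Another member of that arm, 1866533 to 1866680, showed 14.7-fold (10.9 to 19.5) and had a neighbour 1.78 kb away. The start arm of chromosome 5 held 3 of the 10, of which 2 had summits 0.733 kb apart. These neighbours were 4819842 to 4820159 with 18.6-fold (15.1 to 22.7) and 4819209 to 4819383 with 11.4-fold (8.48 to 14.97). The other member of that arm, 7078779 to 7079010, showed 16.4-fold (12.3 to 21.4).

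The peak that borders the 544 kb gap on chromosome 4, 4070334 to 4070508, showed 15.2-fold (11.3 to 19.9), and its nearest summit lay 32.3 kb farther in. The end arm of chromosome 1 contributed 73436223 to 73436371 with 13.3-fold (9.91 to 17.4) and 72559845 to 72559981 with 11.9-fold (8.56 to 16.2). The latter was the most isolated of the 10, 239.6 kb from the nearest summit. The last of the 10, 52976532 to 52976970 in the end arm of chromosome 6, showed 10.98-fold (7.66 to 15.3) on 33 fragments. Apart from the first, the intervals of neighbours in this order overlap. Widths of the 10 ran from 137 to 439 bp, while the 20 members at or above 8-fold had a median width of 201.5 bp, a median pileup of 44 and a median background of 2.43.

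One stretch of the start arm of chromosome 9 stood apart from the rest of the distal arms. Between 7600578 and 7723187, a span of 122.6 kb, 56 peaks covered 51.6% of the sequence. Their median background was 13.4 fragments (range 2.23 to 19.6) and their median pileup 71.5 (10 to 100), against 2.27 and 11 for the other 266 peaks of the arm, which is 5.91 and 6.50 times as much. The median fold was 4.75 inside and 3.65 outside. The fold adds 1 to pileup and background, which lowers it more where the background is small, so the folds inside and outside are not on the same footing. The block was chosen for its background, so these values are a description.

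**Figure D5:**
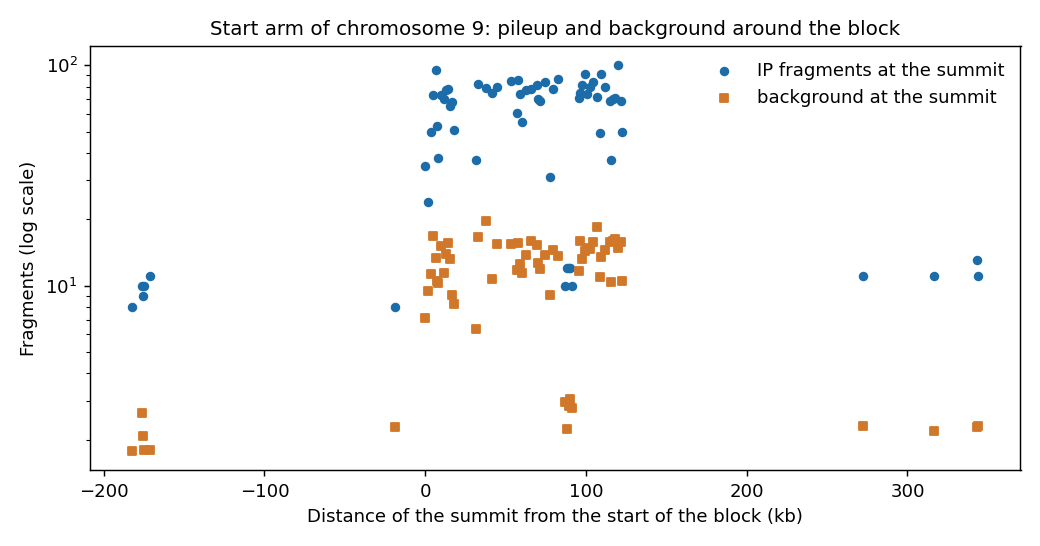
IP fragments (blue) and background (orange) at each summit, in fragments on a log scale (y axis), against the distance of the summit from the start of the block in kb (x axis), on the start arm of chromosome 9. Both stand several times higher over the block than at the peaks on either side, apart from a group of 5 summits inside it with backgrounds of 2.23 to 3.07.

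The limits of the block follow from its rule, a chain of members with a background of 5 or more, each within 20 kb of the next. The peak before it would have joined the chain had its background reached 5, and no summit lies close after it. How sharp the limits are can therefore not be told. The peak before it, 18.9 kb away, had a background of 2.27 and a pileup of 8, and the peak after it, 149.6 kb away, a background of 2.30 and a pileup of 11. Inside, 5 neighbouring peaks from 7687792 to 7692152 returned to backgrounds of 2.23 to 3.07 and pileups of 10 to 12. The other 51 had a background of 6.35 or more, and they make up 51 of the 80 members with a background of 5 or more. Those 80 are 1.47% of the members, against 3.77% of all chromosome peaks and 4.06% of the interior peaks. All 11 members at least 2 kb wide lay in the block, and 23 of the 62 that reached 1 kb did so. The widest of the distal arms, 4928 bp from 7664240 to 7669167, showed 4.68-fold (3.71 to 5.82). The next, 3911 bp from 7672272 to 7676182, showed 5.74-fold (4.59 to 7.09). If the background comes from the input libraries, which the list does not state, fragments of this stretch were more numerous in the input as well as in the IP.

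Outside the block, 29 members had a background of 5 or more, 0.539% of the members there against 3.77% of all chromosome peaks. A few single peaks had far more. The largest background, 189.0 fragments, was found at 4906017 to 4906179 in the start arm of chromosome 7, where the fold was only 1.53 (1.36 to 1.72). In the start arm of chromosome 6, 5000531 to 5000773 had 428 fragments over 106.1, which is 4.005-fold (3.64 to 4.40) and gave a −log10 q of 116.3. The high rank of that peak by q thus went with its depth and not with a high fold. The end arm of chromosome 6 held 58636551 to 58636747, with a background of 57.6 and 2.92-fold (2.498 to 3.39), and 57711366 to 57711727, with 25.3 and 2.05-fold (1.55 to 2.67). In the end arm of chromosome 9, 51849648 to 51849804 had a background of 43.0 and the lowest fold of the distal arms, 1.499 (1.16 to 1.90). Each was at most 362 bp wide, against a median of 716 bp in the block, where widths ran from 139 to 4928 bp. The 5 had their nearest summits 4.90 to 34.5 kb away. By −log10 q, the order of the members was led by the chromosome 3 peak with 433.4, the chromosome 6 peak just named, and the peaks on chromosomes 2 and 5 with folds of 23.8, 18.6 and 16.4.

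At the limits of the band, the summit nearest to 1 Mb from an end lay 3834 bp inside it and the nearest outside 3851 bp away, both on chromosome 8, with folds of 3.03 and 3.33 and widths of 177 and 248 bp. Around 10 Mb the closest summits lay 303 bp inside and 4942 bp outside, both on chromosome 5, with folds of 3.81 and 3.75 and widths of 289 and 170 bp.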

How the data were processed

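Per the submitters' processing notes, the tools were BWA 0.7.17.2 and MACS2 2.2.7.1. Settings, build and pooling of samples are not given here, and all peak names in the deposited list carry a single alignment name. In that list the authors give, as narrowPeak columns, a fold (ratio of IP over background), the −log10 of the p-value and q-value, and a score that was not used. Start, end and summit are 1-based in the coordinates of the deposited list. Chromosome length is the end of the last peak. Pileup and background were solved from fold and p under the known MACS2 formulas (relative tolerance 2e-05) and recovered for 100% of 4996 simulated peaks. Differences over 10 chromosomes were tested by exact two-sided sign flips and Benjamini-Hochberg adjustment over 10 results. The smallest possible raw p is 0.00195. In simulated lists a density ratio of 0.5 came back as 0.496 and one of 1.4 as 1.43. Of 50 lists without an effect, at most 5 gave a raw p under 0.05 for any result; these lists held no clustering. Regions were named by rule: the 20 arms, the 10 largest folds, the 5 largest −log10 q values, the 5 widest peaks, and the 5 densest windows (ties included) and longest gaps; the block, the peaks with the largest background and the widest outside the block were chosen after their values were seen. Members, thresholds and tests were chosen with earlier results of these data known. Genes and sequences were not used, because no build is named for the peaks. Computation used scipy 1.17.1, numpy 2.4.6 and pandas 2.3.3 in Python 3.11.15, with matplotlib 3.10.9 for plots.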

Additional observations from a re-analysis of the deposited data

How the results depend on the processing

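No paired analysis was possible because values per sample do not appear in the list, and no sample could be left out. Differences are the first region minus the second. With each chromosome left out in turn, all 10 results kept their direction and their side of 0.05; the density difference between start and end arms ranged from 8.70 to 11.7 peaks per Mb, that between distal arms and interior from -31.8 to -29.7. Keeping backgrounds under 5 or leaving out the chromosome 9 block (added after seeing the data) changed no call either. Nor did the band of 1 to 8 Mb for the 9 results computed there. The outer to inner density was not recomputed with another band. Peak middles in place of summits kept 5435 members and gave the same values, so that setting was no check. With 1 peak per 10 kb cluster, start minus end density was 0.856 and no longer passed, and the background difference turned to 0.0253. Close neighbours could not be counted there, since none are left. With the band of 1 to 12 Mb the width and fold differences to the interior, -4.45 bp and -0.0399, no longer passed. At or above a −log10 q of 5, the differences to the interior reversed for width (13.3 bp), fold (0.0718) and background (0.464). There the outer to inner density difference (-2.13), close neighbours (-3.83 points), and start to end width (51.4 bp) and fold (0.00911) no longer passed; that setting keeps 862 members. The cause of these reversals and losses was not tested. The number of members was 5435 as reported, 862 with that threshold and 2173 with 1 per cluster. The number with fold 5 or more was 452, and 1890 at a fold of 4 and 104 at 6. The counts at 4 and 6 were not set against all chromosome peaks and show only how the number moves with the threshold. Pileups of 20 or less at 97.3% of members limit the precision of each fold.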
